A study of Schizosaccharomyces pombe with 5 samples.

Results

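The subject is mmi1, the fission yeast gene for the YTH-domain RNA-binding protein Mmi1, as seen in the RNAs recovered with Mei2-TAP and with Msa1-TAP by UV crosslinking and immunoprecipitation followed by sequencing (CLIP-Seq). Every peak of the deposited lists that overlapped the annotated gene by at least 1 nt was taken. This gave 2 of the 128 peaks of the Mei2 list and 0 of the 140 peaks of the Msa1 list. As background, 115 of 5113 coding genes (2.25%) lay under at least 1 Mei2 peak and 130 (2.54%) lay under at least 1 Msa1 peak. Only 10 of the 5113 (0.196%) lay under 2 or more Mei2 peaks, and mmi1 is 1 of these.

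Mmi1 keeps meiosis off in growing cells. It binds short hexamers in meiotic transcripts and hands them to the nuclear exosome, and it also recruits the Ccr4-Not complex, through which the Mei2 protein is ubiquitinated and turned over. When cells starve, Mei2 and its partner meiRNA, a long non-coding RNA from the sme2 locus, trap Mmi1 protein in a nuclear dot, so that each protein restrains the other.

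The study collected 5 libraries: 2 carried Mei2-TAP, 2 carried Msa1-TAP and 1 carried no tag. All came from homothallic h90 strains, which the study's strain list gives as ura4-D18 leu1-32, with a TAP tag and a KanMX marker at the C-terminus of Mei2, at the C-terminus of Msa1, or at neither. Cells were grown on rich medium (30 °C per the labels, while the methods name other temperatures) and starved of nitrogen in ME medium for 4 h, with harvests at 4, 5 and 6 h named in the growth protocol, and the study's text describes the samples as pooled. Msa1 is another RNA-binding protein, used by the study as a control for RNA that sticks to any such protein, and 1 strain represents each protein.

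Each peak list rests on 1 tagged library set against the untagged library, which both lists share. Tags are counted in steps of 0.5, and the totals recovered from the lists were 194019 Mei2-TAP tags, 359940 Msa1-TAP tags and 252516 untagged tags. The Msa1-TAP total was fitted to the steps of 0.5, so the Msa1-TAP tags below rest on that fit. The Mei2 list runs down to a fold of 4.01, with a median of 13.25 Mei2-TAP tags and 3 untagged tags a peak. With 1 library a group there is no replicate check and no test of a fold, so every interval below is a 95% interval that covers counting error only (amplified reads are not independent molecules). The second library of each tagged strain has no list here.

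The mmi1 gene (SPCC736.12c) lies on the minus strand of chromosome III, from 337088 to 340112. It spans 3025 nt in 5 exons and 4 introns, with a spliced length of 2753 nt, a 5′ UTR of 545 nt, a coding sequence of 1467 nt for 488 amino acids, and a 3′ UTR of 741 nt. The upstream Mei2 peak, chrIII:339718-340160, placed 395 nt (89.2%) in the 5′ UTR and 48 nt (10.8%) before the annotated start of the gene. It ended 150 nt before the start codon. The downstream peak, chrIII:338292-339376, placed 1016 nt (93.6%) in coding sequence, from codon 29 to codon 367, and 69 nt (6.36%) in introns. A gap of 341 nt separated them. Together they covered 1411 nt, or 51.3%, of the spliced mRNA, and neither touched the 3′ UTR.

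**Figure D1:**
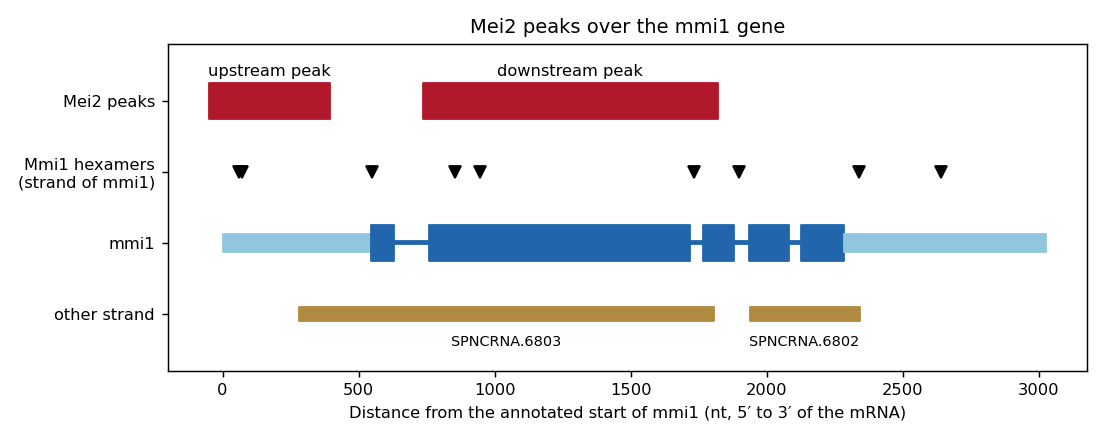
Map of the mmi1 gene drawn 5′ to 3′, with the x axis giving distance in nt from the annotated start. Red bars are the Mei2 peaks, black triangles the 9 Mmi1 hexamers on the strand of mmi1, dark and light blue boxes coding and untranslated exons joined by introns, and brown bars the non-coding RNAs annotated on the other strand. The peaks lie at -48 to 394 nt and at 736 to 1820 nt, and no peak covers the 3′ UTR.

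Because Mmi1 recognises the hexamer TNAAAC (written as DNA, where N is any base but A), the mmi1 gene was searched for it on both strands. The strand of mmi1 held 9, of which 7 lay in exons and 2 in introns, and 5 of the 9 lay inside the peaks, 2 in the upstream and 3 in the downstream one. The 5 are shown with 12 nt on either side, 5′ to 3′ on the strand of mmi1 and with the hexamer in capitals, because they are the Mmi1 hexamers inside the regions recovered with Mei2.
Site 1: taaagtgttttaTTAAACattcaaacatta
Site 2: tttattaaacatTCAAACattattttgaaa
Site 4: tctacttcaggtTCAAACaacttttcttca
Site 5: atccccgcttaaTTAAACatggtaaatatg
Site 6: aggcttagcccaTTAAACcaaaacaaataa
The sequences are those of the RefSeq genome (ASM294v3). Sites 1 and 2 lay in the 5′ UTR at 340045-340050 and 340037-340042, so that their hexamers began at nt 63 and 71 of the gene, its first base counted as 1, and each is also visible in the flank of the other. Sites 4 and 5 lay in the largest coding exon, at 339254-339259 and 339160-339165, and site 6 lay in an intron at 338374-338379. Neither peak held a hexamer on the opposite strand, and the gene held 2 there. The other 4 hexamers on the strand of mmi1, outside both peaks, began at nt 549 (coding), 1900 (intron), 2341 and 2640 (3′ UTR), counted in the same way.

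Hexamers of this kind are common in the genome. The upstream peak held 4.51 per kb and the downstream peak 2.76 per kb on the strand of mmi1, against a mean of 1.36 and 1.37 per kb per strand over genome windows of the same length. Of all such windows taken on both strands, 12.3% held 2 or more in 443 nt and 18.8% held 3 or more in 1085 nt, which sets how much weight the counts can bear. Over whole lists, Mei2 peaks held 1.73 per kb per strand and Msa1 peaks 1.49 per kb per strand. Of the 128 Mei2 peaks 16 (12.5%) held 2 or more on 1 strand, against 9 of 137 nuclear Msa1 peaks (6.57%). The Mei2 peaks were longer (42130 nt in 128 peaks, against 34512 nt in 137), and length was not matched. These shares count a peak on either strand, while the window shares take each strand by itself. The whole gene held 2.98 per kb, against a median of 1.18 per kb over coding genes, and 269 of 5113 coding genes (5.26%) were as dense or denser. A match is a run of letters, and binding of Mmi1 was not measured.

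The upstream peak held 80 Mei2-TAP tags (63.4 to 99.6), against 6.5 untagged tags (2.50 to 13.7). Scaled to 10000000 tags of each library, these were 4123 against 257. The Mei2-TAP count was the higher on both scales, which the call of a peak at a fold of 4 or more requires. The fold over untagged was 16.0 (7.24 to 42.9), a log2 fold of 4.00, and HOMER's own unadjusted Poisson p for the peak was 7.57e-66. The 6.5 untagged tags carry the wider relative error of the pair.

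The downstream peak held 66 Mei2-TAP tags (51.0 to 84.0), against 15 untagged tags (8.40 to 24.7). Scaled in the same way, these were 3402 against 594. The fold was 5.73 (3.23 to 10.8), a log2 fold of 2.52, and the unadjusted HOMER p was 2.56e-28.

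Per kb of peak, the comparison between the regions became sharper. The upstream peak held 181 Mei2-TAP tags per kb and the downstream peak 60.9, a ratio of 2.97 (2.12 to 4.18). In the untagged library the same windows held 14.7 and 13.8 tags per kb, a ratio of 1.06 (0.353 to 2.83). The untagged densities were not separated by their counting error, while the Mei2-TAP density was higher at the 5′ end by more than its counting error. The ratio of the folds, which carries the error of both libraries, was 2.80 with an interval of 0.925 to 10.02. That interval includes 1, so the fold of the upstream peak was not separated from that of the downstream peak at this depth. The bounds of each peak were set by the caller on the Mei2-TAP tags themselves, so the densities describe the called regions and not the RNA as a whole.

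**Figure D2:**
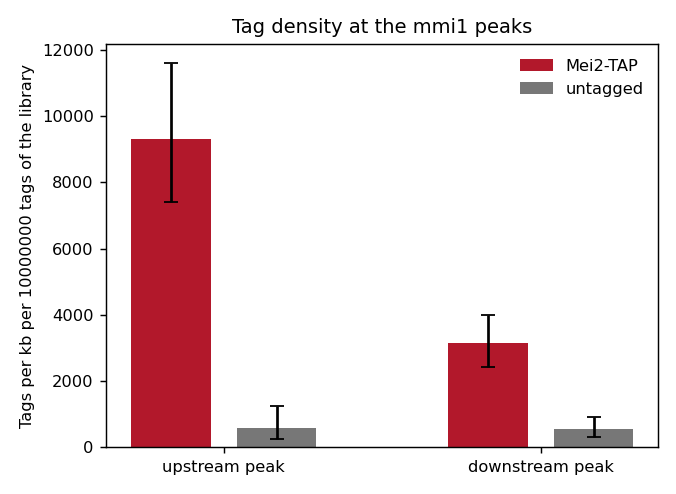
Tags per kb per 10000000 tags of the library (y axis) in the upstream and downstream mmi1 peaks, for Mei2-TAP (red) and untagged (grey), with 95% exact counting intervals. Mei2-TAP stood at 9329 and 3138 in the upstream and downstream peak, and untagged at 582 and 548.

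Summed over both peaks, mmi1 had 146 Mei2-TAP tags against 21.5 untagged tags, a fold of 8.84 (5.60 to 14.6). These were 0.0753% of the Mei2-TAP library (Wilson interval 0.0640 to 0.0885), against 0.00851% of the untagged library (0.00560 to 0.0130). The 146 tags made up 1.32% of the Mei2-TAP tags in all Mei2 peaks, or 2.51% once the meiRNA peak was set aside. Both regions were listed because of their excess over the same untagged library, so the summed fold and shares describe the called regions and are no further support for that excess.

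The lists give every peak as plus, and so carry no strand. This is a limit of the lists, since the study describes strand-preserving libraries and strand-specific coverage tracks, which were not analysed here. The study also reported mmi1 as enriched over untagged cells by native RNA immunoprecipitation on strand-specific array probes. Those data were not analysed here either. SPNCRNA.6803, a non-coding RNA annotated on the other strand from 338306 to 339831, overlapped both peaks, by 114 nt (25.7%) of the upstream one and 1071 nt (98.7%) of the downstream one. In the upstream peak 281 nt were annotated to mmi1 alone, sites 1 and 2 among them, whereas the downstream peak had only 14 nt outside SPNCRNA.6803. For the downstream peak, mmi1 mRNA and SPNCRNA.6803 cannot be told apart from the list, and whether any upstream tags came from the other strand was not tested. A further RNA on that strand, SPNCRNA.6802 from 337772 to 338174, lay under no peak.

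No Msa1 peak overlapped mmi1, nor did any when the gene was widened by 500 nt on each side. This was the usual case in the Mei2 list, where 110 of 128 peaks overlapped no Msa1 peak. Absence from the list does not give the Msa1-TAP tags over mmi1, which were not analysed here, but it can be set against the depth. With the untagged tags seen in the upstream window, Msa1-TAP would have reached the lowest fold in its list, 4.01, at 37.2 tags, and would have held 9.27 tags at no excess and 148 tags at the fold of Mei2-TAP. For the downstream window these were 85.7, 21.4 and 122 tags. For scale, the 20 Msa1 peaks with 5 to 8 untagged tags held 31.5 to 84 Msa1-TAP tags, with a median of 41 and folds of 4.09 to 7.37, and a listed peak with that background had to hold counts near the lower end of this range or more. The caller also applies its own windows and p limit, so these figures give the scale of a listed peak and no bound on Msa1-TAP at mmi1, and absence from the list does not show that there was no excess. The study itself also called Mei2 peaks against Msa1-TAP directly. It kept mmi1 as a target found among the top peaks of both comparisons, and that direct comparison was not analysed here.

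The nearest other peaks of both lists were looked up on either side of mmi1. The nearest Msa1 peak lay 13.9 kb away, at chrIII:354045-354296 over duc1 and SPNCRNA.6812, with 25 Msa1-TAP tags against 4 untagged tags and a fold of 4.38 (1.51 to 17.3). On the other side the nearest Msa1 peak was 85.9 kb away and overlapped no annotated gene. The nearest other Mei2 peaks were 86.4 kb away, over SPCC794.04c and SPNCRNA.6761 with a fold of 4.98 (2.29 to 12.1), and 204 kb away, over tcb1 and SPNCRNA.6901 with 11 Mei2-TAP tags against 2.5 untagged tags. No other Mei2 peak thus lay within 86.4 kb of mmi1 on either side, on a chromosome that carried 29 Mei2 peaks in all. Whether such a distance is unusual for that number of peaks was not tested.

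Among the 128 Mei2 peaks, the upstream mmi1 peak was number 16 by fold, 11 by tags, 12 by tags per kb and 57 by untagged tags per kb. Of the 15 peaks with a higher fold, 13 rested on fewer than 3 untagged tags and only 2 on 3 or more. By the lower bound of the fold, which takes the counts into account, it was number 4, and it was 1 of 4 peaks whose lower bound lay above 7. The downstream peak was number 67 by fold, in a tie with 4 others, and 57 by tags per kb, but 15 by tags, 18 by lower bound and 4 by length. Thus the upstream peak stood near the top of the list on several measures, and the downstream one was a long, well-counted peak of middling fold.

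**Figure D3:**
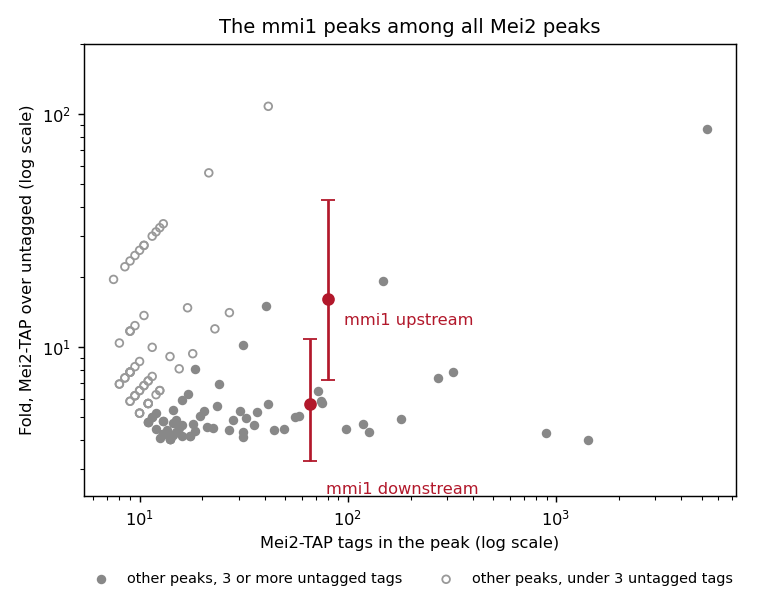
Each of the 128 Mei2 peaks by its Mei2-TAP tags (x axis, log scale) and its fold of Mei2-TAP over untagged (y axis, log scale). Red points are the mmi1 peaks with 95% counting intervals, grey filled points are peaks with 3 or more untagged tags, and open points are the 59 peaks with fewer than 3. Most peaks of high fold are open points at few tags, and the upstream mmi1 peak lies apart from them at 80 tags and 16.0-fold.

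The order of folds near the upstream peak was not firm. The next higher fold was that of nc-tgp1, a non-coding RNA that runs into the phosphate-responsive gene tgp1, with 147 Mei2-TAP tags against 10 untagged tags and a fold of 19.1 (10.1 to 40.7), and this peak overlapped Msa1 peaks. The next 2 above were in fus1, the formin of cell fusion, with 7.5 Mei2-TAP tags against 0.5 untagged tags, and adg2, with 8.5 against 0.5. On a floor of 3 untagged tags these were at least 3.25-fold and at least 3.69-fold higher, so their place above mmi1 rests on the low background. Next below came rbd4, a rhomboid protease gene, with 40.5 Mei2-TAP tags against 3.5 untagged tags and a fold of 15.1 (5.15 to 65.2). SPAC4H3.08 and tim23, which encodes a mitochondrial import channel, followed with at least 7.38-fold and at least 11.7-fold on the same floor. Their lower bounds were 2.98 and 3.96. None of these neighbours was separated from the upstream mmi1 peak by its interval. No other Mei2 peak outside the Msa1 list had at least 50 Mei2-TAP tags and a log2 fold within 0.5 of it.

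In the order of fold the next above the downstream peak were srk1, sts5 and trm44, of which sts5 and trm44 had 9 Mei2-TAP tags against 2 untagged tags each (at least 3.90-fold). The peaks of lys1 and prm1, of kap109, of cyr1 and of tcb1 were tied with it at 5.73-fold, but on 11 Mei2-TAP tags against 2.5 untagged tags each (at least 4.77-fold on the floor). The lower bounds were 1.21 for sts5 and trm44 and 1.39 for the tied peaks. Of these peaks only that of srk1, which encodes a stress-activated kinase, had a count like that of mmi1. By the stricter likeness of at least 50 Mei2-TAP tags, no overlap with the Msa1 list and a log2 fold within 0.5, 9 peaks were alike. They lay over snoU14, tif51 (the translation factor eIF5A), snu3, SPAC11D3.01c, the facing ends of pdh1 and fta7, srk1, rep2, SPBP23A10.11c and leu2, with folds between 4.29 and 7.33. The fold of the downstream mmi1 peak was thus 1 that several deep peaks shared.

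Few Mei2 peaks shared the place of the upstream peak. Only 6 of the 128 Mei2 peaks (4.69%) had their midpoint in the 5′ UTR of a coding gene, against 22 of 140 Msa1 peaks (15.7%), and among them 4 Mei2 peaks had 3 or more untagged tags. Among these, beside mmi1, were srk1, with 75.5 Mei2-TAP tags against 17 untagged tags and a fold of 5.78 (3.38 to 10.4), and rep2, the activator subunit of the S-phase transcription complex MBF, with 74.5 against 16.5 and a fold of 5.88 (3.41 to 10.7). The Mei2-TAP tags of mmi1, srk1 and rep2 were close, and the untagged tags of mmi1 were the lowest of the 3. The mmi1 fold was 2.77 times that of srk1 (0.938 to 9.82) and 2.73 times that of rep2 (0.884 to 9.95), and both intervals include 1. Of the 13 Msa1 peaks in a 5′ UTR with 3 or more untagged tags, the folds reached 8.54.

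The 10 coding genes under 2 or more Mei2 peaks were set beside mmi1 by their summed tags. With 146, mmi1 had the most Mei2-TAP tags of the 10, ahead of leu2, a leucine synthesis gene, with 128 Mei2-TAP tags against 29 untagged tags and a fold of 5.74 (3.81 to 8.92), and SPAC57A7.05, with 106 against 31.5 over 3 peaks and a fold of 4.38 (2.92 to 6.74). SPBP23A10.11c had 70.5 against 15.5, set2, the histone H3 lysine methyltransferase gene, had 52 against 12, and SPCC794.04c, rpa2 and nmd5 had 37 to 47.5 tags each. The summed folds of sts5 and fus1, with 19.5 against 3 and 17 against 2, rested on very few untagged tags. The interval of mmi1 (5.60 to 14.6) overlapped those of leu2 and SPAC57A7.05. Of the 10 genes, 8, mmi1 among them, lay under no Msa1 peak. SPCC794.04c is also among the 8, though a Mei2 peak over it overlapped an Msa1 peak that lay over no annotated gene. As background, 110 of 128 Mei2 peaks overlapped no Msa1 peak, a share that counts peaks and not genes.

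**Figure D4:**
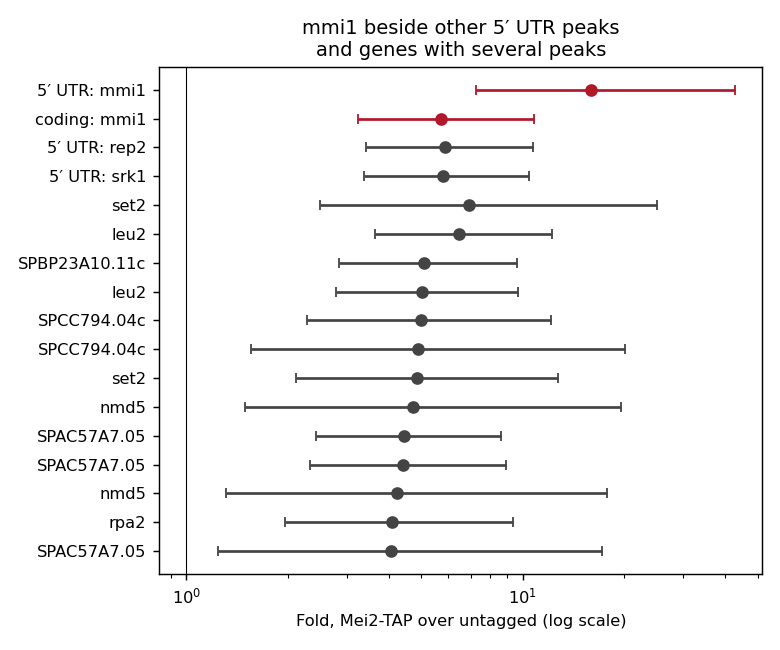
Fold of Mei2-TAP over untagged (x axis, log scale) with 95% counting intervals for the mmi1 peaks (red), the 5′ UTR peaks of srk1 and rep2, and single peaks of the other genes under 2 or more Mei2 peaks (dark grey), all with 3 or more untagged tags. The upstream mmi1 peak has the highest fold shown, 16.0, and its interval overlaps those of the rest.

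Mmi1 works with other proteins and on known RNAs, and 4 lists of these were examined for peaks. Of the 63 annotated genes they hold, 5 (7.94%) lay under a Mei2 peak and 4 (6.35%) under an Msa1 peak, while over all 12606 annotated nuclear genes the shares were 1.56% and 1.73%. The lists were drawn up around mmi1 and meiRNA with results of these data known, so the difference in share is no independent evidence.

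Among 27 genes of the Mmi1 elimination machinery, 3 lay under a Mei2 peak and 2 others under an Msa1 peak. Besides mmi1 the Mei2 peaks lay over dis3, which encodes a catalytic nuclease of the exosome, with 11 Mei2-TAP tags against 3 untagged tags and a fold of 4.77 (1.26 to 26.6), and over dhp1, which encodes a nuclear 5′ to 3′ exonuclease, with 9 against 1.5, or at least 3.90-fold on the floor of 3 tags. Both are shallow beside mmi1, and each also overlapped a non-coding RNA. The lower bound of the dhp1 fold was 1.39. The Msa1 peaks lay over rrp45 and mtr3, which encode subunits of the exosome ring, with 26.5 Msa1-TAP tags against 3 untagged tags (6.20-fold, 1.90 to 32.0) and 13.5 against 1.5 (at least 3.16-fold). That of mtr3 was centred on the neighbouring ubc8, and the lower bound of its fold was 1.23.

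No member of the Ccr4-Not list (8 of 10 names matched the annotation) lay under a peak of either protein. Of 23 transcripts known to be removed through Mmi1, only sme2, the meiRNA gene, and nc-tgp1 lay under peaks, and both did so in both lists. The peak that reached sme2 held 5277.5 Mei2-TAP tags against 79.5 untagged tags, a fold of 86.4 (69.2 to 109). The one in the Msa1 list held 249 Msa1-TAP tags against 14 untagged tags, a fold of 12.5 (7.30 to 23.2). Only 653 nt of the Mei2 peak and 450 nt of the Msa1 peak lay in annotated sme2. Both also overlapped aga1, SPNCRNA.4673 and SPNCRNA.4674, and the tags are those of the whole peaks. The rest of each peak lay beyond the annotated 3′ end of sme2. The study describes a meiotic meiRNA extended at that end and recovered with Mei2-TAP. Which RNA gave the tags there was not tested. The study itself reported no meiRNA enrichment with Msa1-TAP, by qRT-PCR or in its CLIP-Seq comparison. The nc-tgp1 RNA had a deeper Msa1 peak of 29.5 Msa1-TAP tags against 3 untagged tags, a fold of 6.90 (2.14 to 35.4). In the list of 12 genes of the Mei2 switch, sme2 and mmi1 lay under Mei2 peaks and only sme2 lay under an Msa1 peak. The mei2 gene itself lay under none. So mmi1 was in the Mei2 list alone, as were most Mei2 peaks.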

How the data were processed

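Alignment by the authors used STAR and the ASM294v2 build, with SAMtools for sorting and deepTools for coverage tracks, which are not analysed here. HOMER, set for wide peaks, was then run on 1 tagged library with the untagged library as control. For Mei2 the study also ran it with Msa1-TAP as control, and that comparison is not analysed here. Versions are not given in the sources used here. Libraries had 12 PCR cycles and no described molecular identifiers.

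The deposited lists give the estimated count of tags per peak in steps of 0.5, the tag signal scaled to 10000000 tags, the fold (a ratio of scaled tags) and HOMER's unadjusted Poisson p-value. The deposited score and clonal ratio were not used, nor were duplicate copies of the lists. In each list 1 library is given on the scale of the other. Dividing unscaled by scaled values gave the Mei2-TAP and untagged totals. The Msa1-TAP total was instead fitted, as the value at which its low scaled counts came nearest to whole steps of 0.5. Raw tags followed from the totals. The Mei2-TAP and untagged totals were checked on low values, where 119 of 119 untagged values of the Mei2 list came within 0.2 of a whole step. In the Msa1 list 125 of 125 low values did so, but the fit was made on these values. That count is therefore no check of the Msa1-TAP total.

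Ratios of tags have exact Clopper-Pearson intervals at 95%, and ratios of ratios have exact conditional intervals. Where whole numbers were needed, tags ending in 0.5 were rounded both ways. Only the Clopper-Pearson interval was tested on simulated data, with independent whole counts. The test covered neither the intervals of ratios of ratios nor amplified reads. Where the untagged library had fewer than 3 tags, 3 tags were put in their place and the fold is written as "at least". Such a fold leaves out counting error and is not the lower bound of the 95% interval. No p-value was computed. Genes and sequence came from RefSeq ASM294v3. Nearly all genes that could be compared ended at the same position in both builds, and 0 peaks lay past a chromosome end. Mitochondrial peaks were not assigned to genes.

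The members, gene lists and tests were chosen with earlier results of these data known. The rule for named genes took mmi1 and its neighbours, genes under 2 or more Mei2 peaks, the 3 peaks on either side of each mmi1 peak by fold, Mei2 peaks centred in a 5′ UTR with at least 3 untagged tags, list members under a peak, and the nearest other peaks. 1 of the peaks that this rule takes is not reported here. Peaks were called most alike with at least 50 Mei2-TAP tags, a log2 fold (log2 of the deposited ratio) within 0.5 and no overlap with the Msa1 list. Alternatives were the source of the fold, the totals, 1 added tag, halved tags, a stricter peak threshold, the overlap required, the part of the gene, the strand and the form of the motif. Figures and intervals were made with Python 3.11.15, numpy 2.4.6, pandas 2.3.3, scipy 1.17.1, statsmodels 0.14.6 and matplotlib 3.10.9.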

Additional observations from a re-analysis of the deposited data

How the results depend on the processing

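The fold at the upstream mmi1 peak lay between 14.1 (1 tag added to each library) and 16.5 (totals without the meiRNA peak), and that at the downstream peak between 5.45 and 5.88 under the same alternatives. With the tags halved, the intervals were 5.29 to 74.5 and 2.54 to 14.8. The ratio of the upstream to the downstream fold was 2.58 (0.905 to 8.38) with 1 tag added and had an interval of 0.485 to 20.1 with halved tags, so it included 1 in each. With a fold of at least 8 and p of at most 1e-10, 1 Mei2 peak over mmi1 was left, the upstream one, and 3 listed genes (mmi1, nc-tgp1 and sme2) in place of 5. Over coding sequence only, 1 Mei2 peak was left, the downstream one. With at least 50% of the peak inside the gene, 4 listed genes in place of 5 lay under a Mei2 peak, sme2 being lost, and 2 in place of 4 under an Msa1 peak (nc-tgp1 and rrp45). No paired analysis was possible because each list holds 1 tagged library and the untagged group has only 1. The folds rest on 6.5 and 15 untagged tags, without a replicate list and without strand.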
